A study of Mus musculus with 3 samples.

Results

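Collagen genes were taken as every gene of the deposited count tables whose symbol reads Col, a number, the letter a and a number, and 44 of the 27998 listed genes met this rule. Single-cell RNA sequencing (scRNA-seq) had been run on kidneys of mice 14 days after folic acid (FA), which injures the tubules and is followed by interstitial scarring. There were 2 libraries from Aoah-/- mice, which lack the lipase acyloxyacyl hydrolase in every tissue and had been backcrossed to C57/BL6J, and 1 library from a wild-type (WT) mouse, the controls of the study being littermates bred from heterozygotes. The labels give an age of 6 to 8 weeks for all 3 mice, every mouse received FA, and no kidney without FA was among the libraries. Kidneys had been perfused, digested with type IV collagenase and DNase I and strained, so the cells counted here are those that this digestion released. With 1 WT library no test between the genotypes was possible. Every comparison below therefore gives the level in each library, the log2 ratio of the mean of the Aoah-/- libraries to WT, and the SD between the log2 ratios of Aoah-/- mouse 2 and Aoah-/- mouse 3. Nothing in the labels pairs a knockout mouse with the WT mouse.

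Collagens are triple helices of alpha chains that are modified and folded in the endoplasmic reticulum, secreted, trimmed and crosslinked outside the cell. The fibrillar collagens, of which types I, III and V are the interstitial ones, form the banded fibers that accumulate in a scarred kidney and are made mainly by fibroblasts and by cells related to pericytes. Type IV collagen forms the sheet of the basement membrane under tubules and around vessels: the alpha 1 and alpha 2 chains (Col4a1, Col4a2) make the network found in most basement membranes, while alpha 3, alpha 4 and alpha 5 (Col4a3, Col4a4, Col4a5) make the network of the glomerular filter and of some tubule segments. Types XV and XVIII (Col15a1, Col18a1) sit in or beside basement membranes, type VI forms beaded microfibrils near cells, and types XII, XIV and XVI bind to the surface of fibrils.

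Several of these genes are neighbors in the genome, and the promoters of 4 are shown here because these genes are among the members described most below. RefSeq (GRCm38.p6) gave a window of 250 bases before and 50 after a transcription start for 35 of the 44 members, 38 windows in all. The windows of Col4a2 (chr8:11312555-11312854, plus strand) and Col4a4 (chr1:82586800-82587099, minus strand) each hold the start of 2 genes that run in opposite directions, Col4a1 with Col4a2 and Col4a3 with Col4a4. Those of Col3a1 (chr1:45311288-45311587, plus strand) and Col1a2 (chr6:4505368-4505667, plus strand) belong to interstitial collagens, and the RefSeq start of Col1a2 lies inside the gene as the annotation used for the other coordinates draws it. Capitals mark the GC box letters GGGCGG, the CCAAT box and the TATA box letters TATAAA on either strand, and no marked motif overlapped another.
Col4a2: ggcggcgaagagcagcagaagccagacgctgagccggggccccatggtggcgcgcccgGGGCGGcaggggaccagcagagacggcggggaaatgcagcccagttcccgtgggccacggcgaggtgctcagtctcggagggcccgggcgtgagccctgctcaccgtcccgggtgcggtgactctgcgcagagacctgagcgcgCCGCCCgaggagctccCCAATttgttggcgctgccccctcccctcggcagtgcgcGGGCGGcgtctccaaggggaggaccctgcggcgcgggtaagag
Col4a4: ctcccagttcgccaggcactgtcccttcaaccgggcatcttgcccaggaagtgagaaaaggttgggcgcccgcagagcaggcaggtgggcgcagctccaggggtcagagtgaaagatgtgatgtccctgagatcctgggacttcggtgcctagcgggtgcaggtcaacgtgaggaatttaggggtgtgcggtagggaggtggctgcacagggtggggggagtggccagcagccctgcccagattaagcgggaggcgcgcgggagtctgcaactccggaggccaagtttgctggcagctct
Col3a1: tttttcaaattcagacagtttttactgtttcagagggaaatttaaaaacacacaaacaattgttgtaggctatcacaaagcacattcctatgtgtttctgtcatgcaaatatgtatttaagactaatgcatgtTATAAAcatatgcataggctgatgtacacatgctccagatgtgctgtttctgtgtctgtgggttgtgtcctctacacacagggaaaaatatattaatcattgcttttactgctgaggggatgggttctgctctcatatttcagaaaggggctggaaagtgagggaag
Col1a2: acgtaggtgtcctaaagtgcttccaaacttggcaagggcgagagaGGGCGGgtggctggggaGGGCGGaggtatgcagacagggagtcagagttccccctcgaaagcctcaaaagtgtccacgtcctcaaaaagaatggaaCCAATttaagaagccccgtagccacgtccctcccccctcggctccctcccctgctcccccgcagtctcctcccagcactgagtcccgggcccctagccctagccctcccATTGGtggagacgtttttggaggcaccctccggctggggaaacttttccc

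The Col4a2 window held 3 GC boxes and 1 CCAAT box at a GC content of 73.7%, and the Col1a2 window 2 of each at 61.0%. The Col4a4 window held none of the 3 motifs at 63.3% GC. The Col3a1 window, at 37.7% GC, held 1 TATA box and neither of the others. Over 32851 RefSeq windows of the same length, 35.7% held GGGCGG, 37.4% CCAAT and 13.6% TATAAA. Among the 38 collagen windows these shares were 60.5%, 34.2% and 13.2%. A match of letters describes the window and says nothing about what binds there.

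The libraries held between 23072 and 25516 barcodes and 158551992 to 167222984 UMIs, and 18202 to 21368 cells per library passed a minimum of 200 genes and a maximum of 50% mitochondrial UMIs. Barcodes of Aoah-/- mouse 2 and WT mouse 3 went down to 500 UMIs, but those of Aoah-/- mouse 3 to 1672, so the latter had passed a higher limit, which bears on every share of cells. Any pair of libraries shared 171 to 176 barcodes, 0.697% to 0.763% of the smaller library, and 0 of these had identical profiles. Aoah transcripts stood at 6.75, 6.19 and 18.2 UMIs per 1000000 UMIs (CPM) in Aoah-/- mouse 2, Aoah-/- mouse 3 and WT mouse 3, lower in both knockout libraries but not at 0. Values are given in that order of libraries from here on. Clusters were named from marker genes with all 44 collagens held out of the clustering, which gave 17 classes with at least 50 cells in each library, and 2 smaller classes, fibroblast-like and pericyte or smooth muscle-like cells, with at least 15.

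Of the 44 members, 32 had at least 100 UMIs over the kept cells. The other 12 had 1 to 85 UMIs: Col2a1, Col6a4, Col8a2, Col9a1, Col9a2, Col9a3, Col10a1, Col11a1, Col20a1, Col22a1, Col25a1 and Col28a1. None of the 44 was at 0. Together they held 251678 UMIs, which was 0.0503%, 0.0699% and 0.0757% of all UMIs. Col4a4 had the most with 53080, followed by Col4a3 with 40322, Col4a1 with 36201, Col18a1 with 22966 and Col4a2 with 19589. The fibrillar genes with the most UMIs were lower, with 13788 for Col3a1, 12574 for Col27a1, 11481 for Col1a2 and 7962 for Col1a1. These are counts of captured transcript ends, so they carry no length term, but how well each gene's end was captured is not known and levels of different genes are not ranked further.

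**Figure D1:**
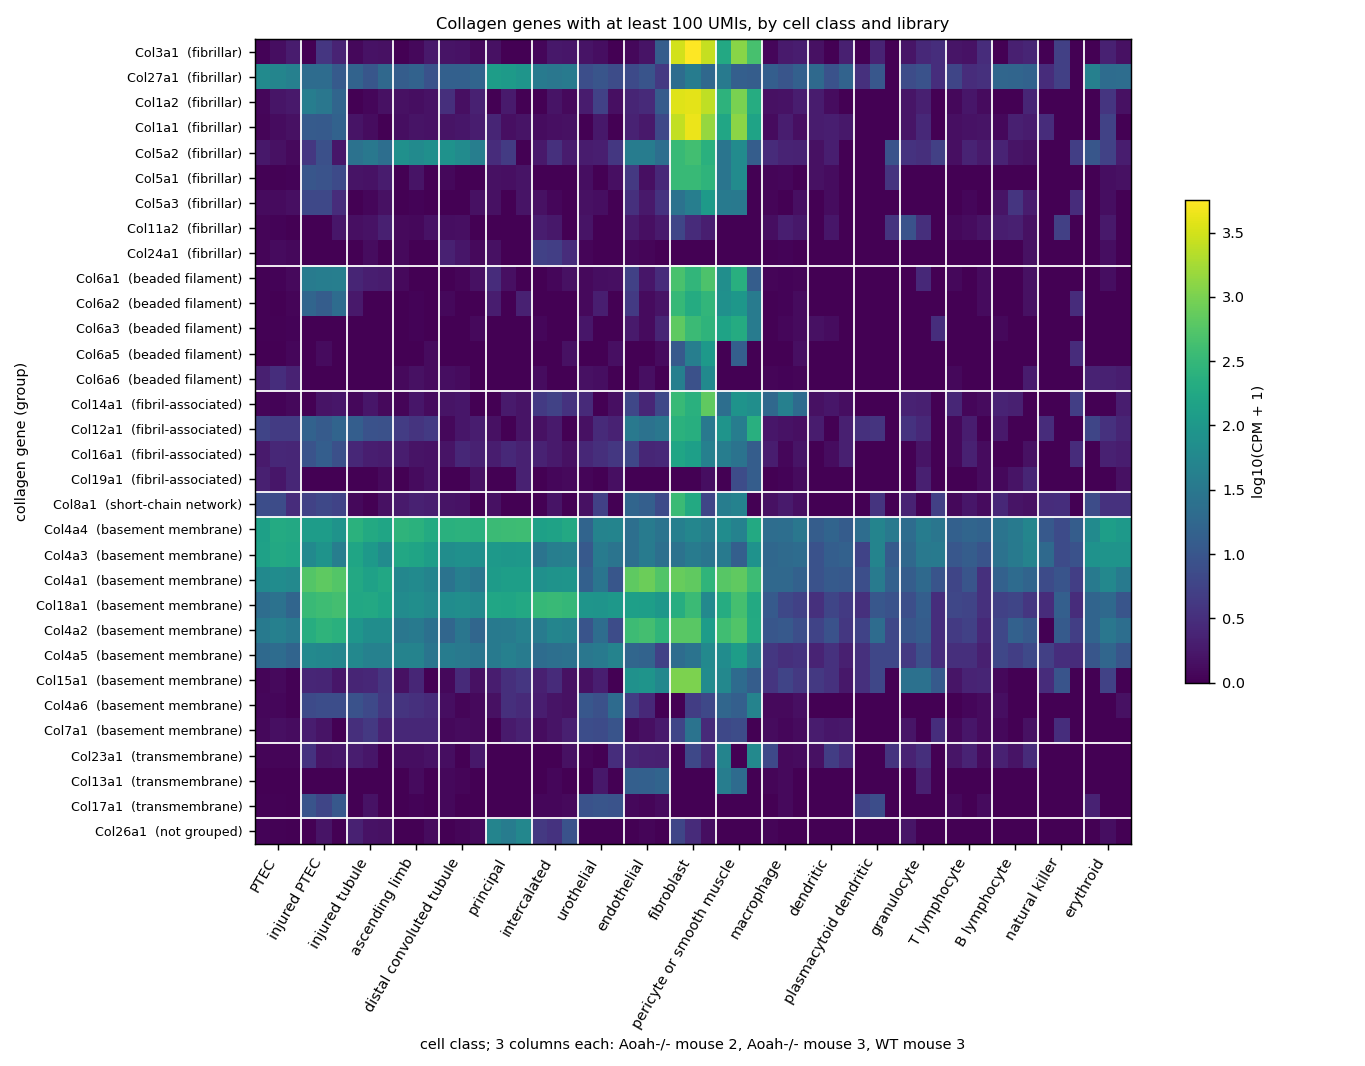
Level of the 32 collagen genes with at least 100 UMIs (rows, by structural group) in 19 cell classes (columns, each split into Aoah-/- mouse 2, Aoah-/- mouse 3 and WT mouse 3), as log10 of CPM plus 1. Brighter color is a higher level. Genes of types I, III, V and VI are bright in the fibroblast-like columns, Col4a1 and Col4a2 in endothelial, injured PTEC, fibroblast and pericyte columns, and Col4a3 and Col4a4 along the tubule.

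The heat map of levels by class shows in which cells each member was counted. Over the 19 classes, 18 of 35 members with at least 30 UMIs had their highest level in the same class in all 3 libraries, against 40.3% of all genes. That class was the fibroblast-like one for 13 members (1.95% of all genes): Col1a1, Col1a2, Col3a1, Col5a1, Col5a2, Col6a1, Col6a2, Col6a3, Col6a5, Col6a6, Col14a1, Col15a1 and Col16a1. It was the principal cell for Col4a4, Col26a1 and Col27a1 (1.56% of all genes), the intercalated cell for Col24a1 (2.43%) and the pericyte class for Col4a6 (2.45%). When only the 17 larger classes were ranked, the number was 21 of 35 (47.9% of all genes), with 8 members highest in injured proximal tubule cells (4.30% of genes) and 5 in endothelial cells (9.36%), the latter Col4a2, Col8a1, Col12a1, Col13a1 and Col15a1. The clusters were built without the collagens, but the same cells supplied the markers, so these shares describe the classes and are not a test.

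Summed over all kept cells, the fibrillar collagens were lower in both Aoah-/- libraries than in WT, and the basement membrane collagens were not. The 11 fibrillar genes stood at 66.6, 116 and 231 CPM (log2 ratio -1.35, SD 0.56), and at 30.3, 86.1 and 200 CPM without Col27a1, which is a tubule gene in these data (log2 ratio -1.78, SD 1.06). Types I and III alone stood at 16.7, 67.7 and 178 CPM, a log2 ratio of -2.08 with an SD of 1.43. Aoah-/- mouse 2 lay further below Aoah-/- mouse 3 (log2 ratios to WT of -3.41 and -1.39) than the latter lay below WT.

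The difference in the sum lay mostly in types I and III. Col1a1, which encodes the alpha 1 chain of type I, stood at 4.59, 21.4 and 36.6 CPM. Col1a2, its alpha 2 chain, stood at 6.92, 20.1 and 63.7 CPM, and Col3a1, type III, at 5.20, 26.2 and 77.8 CPM. Members and genes were compared in a class where they had at least 30 UMIs in all and a mean of at least 10 CPM, with 1 CPM added. Of the 11 members that met this over all kept cells, these 3 were lower by at least 1.5-fold in both Aoah-/- libraries, against 2.09% of all genes, and 0 were higher, against 4.07%. Col5a1, at 0.894, 1.95 and 6.99 CPM, and Col5a3, at 0.470, 0.637 and 2.96 CPM, were also lower in both knockout libraries. The other fibrillar genes did not follow the sum: Col5a2 stood at 11.5, 14.8 and 11.04 CPM, Col27a1 at 36.2, 29.4 and 31.7 CPM, Col11a2 at 0.417, 0.407 and 0.225 CPM and Col24a1 at 0.356, 0.407 and 0.201 CPM. Type VI, at 4.85, 7.28 and 39.3 CPM, was also lower in both (log2 ratio -2.69, SD 0.41). Basement membrane collagens stood at 412, 555 and 454 CPM (log2 ratio 0.09, SD 0.30), so the WT value lay between those of the knockout libraries.

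The fibrillar sum over all cells and the number of stromal cells had the same order of libraries. Fibroblast-like cells numbered 31, 86 and 362, or 0.145% (95% exact binomial interval 0.0986 to 0.206), 0.437% (0.349 to 0.539) and 1.99% (1.79 to 2.20) of kept cells, a difference of -1.70 percentage points with an SD of 0.21. A second stromal cluster, led by the mesothelial gene Upk3b together with Dcn, held 149 WT cells, 1 cell of Aoah-/- mouse 2 and 0 of Aoah-/- mouse 3. It may therefore be a feature of the WT library, and it carried 2274 CPM of fibrillar collagen there, 1270.1 of it Col3a1. With both stromal populations left out, the fibrillar sum was 51.5, 55.2 and 43.4 CPM, slightly higher in both Aoah-/- libraries (log2 ratio 0.30, SD 0.07), while the basement membrane sum kept its ratio of 0.09. Col27a1, at 36.2, 29.4 and 31.7 CPM over all kept cells, made up most of that remaining fibrillar sum. Its log2 ratio in the remaining cells was 0.02, with 0.16 in Aoah-/- mouse 2 and -0.14 in Aoah-/- mouse 3, so it was not higher in both. Types I and III, in which the difference over all cells mostly lay, had WT between the knockout libraries there. Type VI without the stromal cells stood at 2.47, 3.59 and 2.68 CPM. The stromal cells held most type I and III UMIs, so leaving them out takes away most of that difference whatever its cause. How many stromal cells a digestion releases was not measured, and the cause of the difference was not tested.

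Transcripts of types I and III sat in few cells. A total of 158, 451 and 775 cells had at least 1 such UMI, which is 0.739%, 2.29% and 4.26% of kept cells. The 100 cells with the most held 97.4%, 93.4% and 43.6% of all type I and III UMIs. In fibroblast-like cells 96.8%, 98.8% and 99.7% of cells had at least 1, against 0.241%, 0.6003% and 0.997% of T and B lymphocyte-like cells, which should have none and serve as the measure of free RNA (median 2561.5, 2862 and 2613 UMIs per lymphocyte against 6234, 5291 and 7206.5 per fibroblast-like cell). Fibroblast-like cells held 84.2%, 84.4% and 80.5% of all type I and III UMIs, and the Upk3b stromal cells 17.1% in WT. Their share of all fibrillar UMIs was lower, 22.8%, 52.4% and 68.1%, because PTEC-like cells held 39.9%, 17.2% and 11.6% of the fibrillar sum, most of it Col27a1.

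**Figure D2:**
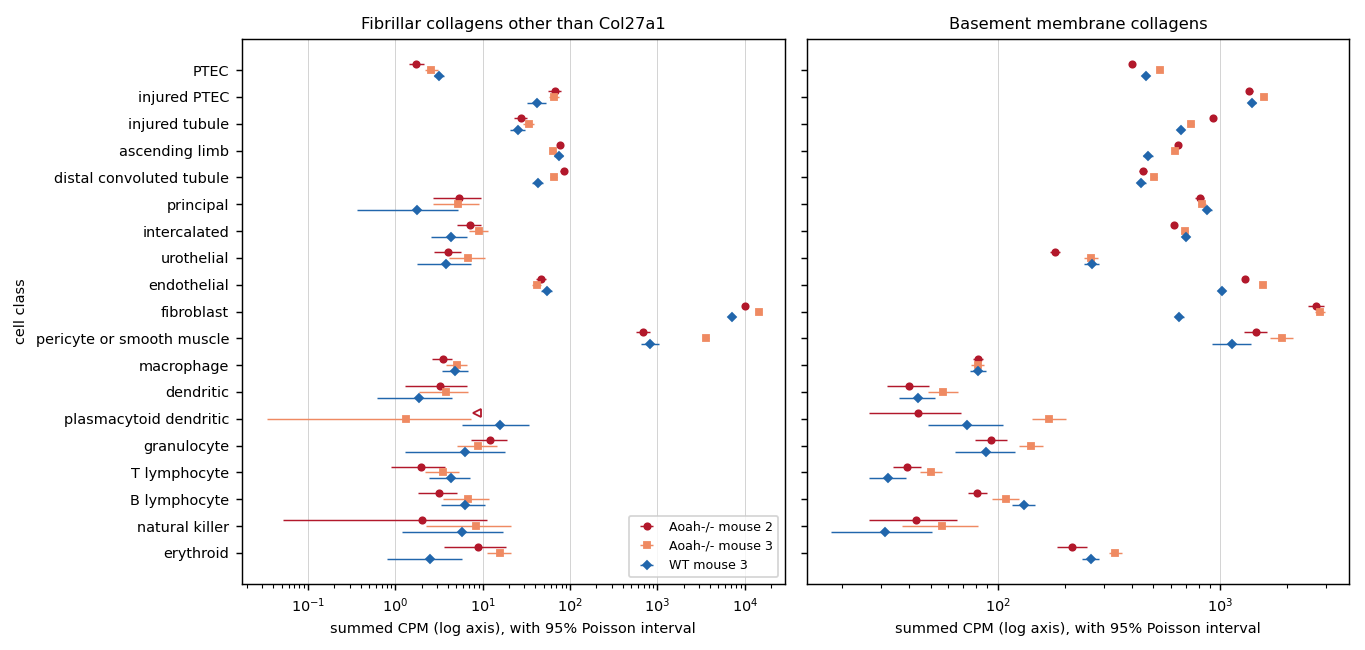
Summed CPM of the fibrillar collagens other than Col27a1 (first panel) and of the basement membrane collagens (second panel) in each cell class, on a log axis, 1 point per library with its exact 95% Poisson interval (counting error only; an open triangle is the upper bound of a class at 0 UMIs). Fibrillar levels are highest in the fibroblast-like cells, stand at 63.4 to 76.9 CPM in ascending limb-like, 42.6 to 84.5 CPM in distal convoluted tubule-like and 41.7 to 54.3 CPM in endothelial-like cells, and at 1.75 to 3.18 CPM in PTEC-like cells. Basement membrane levels span a narrower range.

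Within fibroblast-like cells the order turned around, and the fibrillar sum was higher in both Aoah-/- libraries. It stood at 10065.7 CPM (95% Poisson interval 9629.5 to 10516.7) and 14685 CPM (14362 to 15012) in the knockouts and 7194 CPM (7094 to 7295) in WT, a log2 ratio of 0.78 with an SD of 0.39. The size of this difference depended on the choice of cells. With a limit of 20% mitochondrial UMIs the sums were 4962, 9899.8 and 7411 CPM over 16, 57 and 335 cells (log2 ratio 0.00), and with 30 principal components they were 6217, 10037 and 7053 CPM over 38, 148 and 352 cells (log2 ratio 0.20). Under both alternatives WT lay between the Aoah-/- libraries. Per cell, the median of type I and III UMIs per 10000 was 78.4, 70.9 and 65.2, with quartiles of 33.9 to 125, 26.5 to 142 and 40.3 to 87.6 that overlapped in all 3 libraries.

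By gene, Col1a1 stood at 2550.4, 4315 and 1436 CPM in fibroblast-like cells (log2 ratio 1.26, SD 0.54), Col1a2 at 3657, 3910 and 2456 CPM, and Col3a1 at 3134, 5633 and 2656 CPM. All 3 genes were lowest in WT. The ratio of Col1a1 to Col1a2 UMIs, whose products join in one type I helix, was 0.697, 1.10 and 0.585. The type V genes, which start type I fibrils, were closer together: Col5a1 stood at 332, 335 and 278 CPM and Col5a2 at 337, 408 and 238 CPM. Col5a3 went the other way at 25.2, 39.1 and 111 CPM (log2 ratio -1.76). The remaining fibrillar genes, Col11a2 and Col24a1, had 28 to 55 and 25 to 53 UMIs per library over all cells.

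Basement membrane collagens had a higher ratio than the fibrillar ones in fibroblast-like cells, at 2696, 2806 and 654 CPM (log2 ratio 2.07, SD 0.04). Col15a1 stood at 1016, 1012 and 63.0 CPM (log2 ratio 3.99), Col4a1 at 765, 672 and 285 CPM (1.33), Col4a2 at 609, 625 and 118 CPM (2.38) and Col18a1 at 216, 354 and 56.4 CPM (2.32). In each of these 4 genes both knockout libraries lay above WT by more than they differed from each other. Col8a1, a short-chain collagen of vessel walls, stood at 357, 190 and 5.13 CPM (log2 ratio 5.49). Col12a1, a fibril-associated collagen of tissues under tension, stood at 252, 223 and 31.9 CPM (2.86), and Col16a1 at 161, 132 and 41.8 CPM (1.79).

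Lower in both Aoah-/- libraries were Col14a1, a fibril-associated collagen of mature connective tissue, at 337, 238 and 677 CPM (log2 ratio -1.23), Col6a5 at 10.1, 39.1 and 102 CPM (-2.01), Col4a5 at 20.1, 26.1 and 58.2 CPM (-1.30) and Col5a3. The main type VI chains did not share a direction, and none was past 1.5-fold in both libraries: Col6a1 stood at 478, 294 and 510 CPM, highest in WT, Col6a2 at 322, 201 and 298 CPM, with WT between the knockouts, and Col6a3 at 659, 357 and 272 CPM, lowest in WT. Col6a6 stood at 40.2, 7.44 and 58.6 CPM. In all, 8 of 23 members tested were higher by 1.5-fold in both knockout libraries, against 11.2% of all genes in these cells, and 4 were lower, against 11.5%. The knockout libraries were themselves 1.5-fold apart in 11 of the 23 members and in 41.8% of all genes, and the median log2 ratio was 0.64 over the members and 0.03 over all genes.

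**Figure D3:**
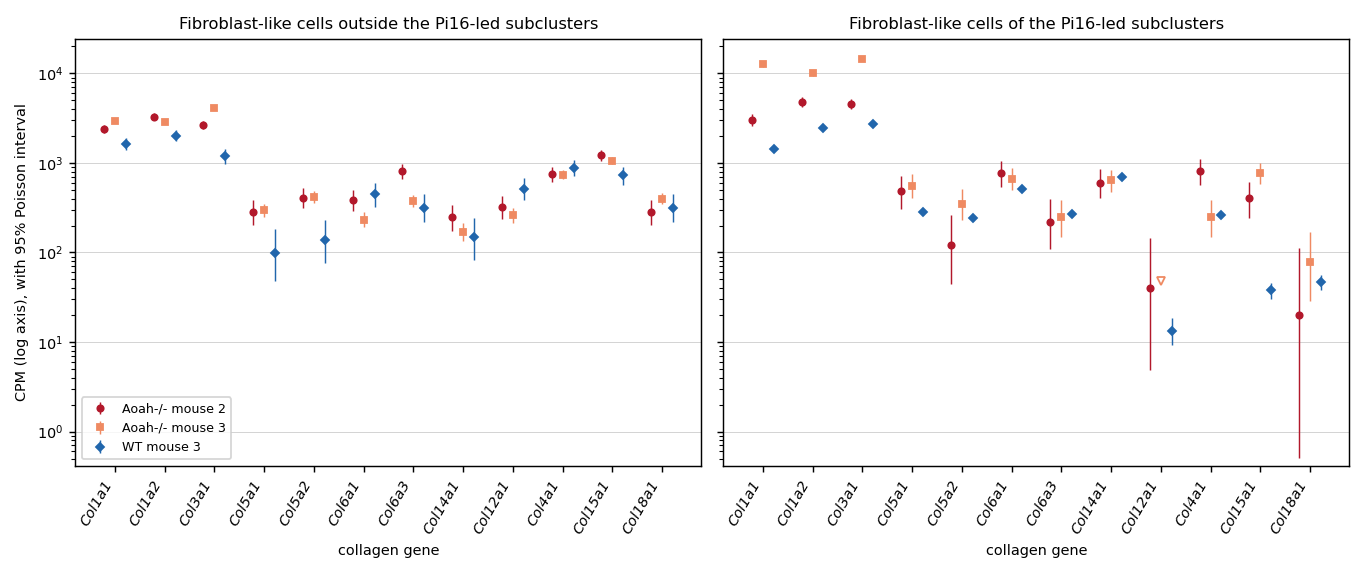
CPM of 12 collagen genes in fibroblast-like cells outside (first panel) and inside (second panel) the subclusters led by Pi16, on a log axis, 1 point per library with its exact 95% Poisson interval. Outside the Pi16-led subclusters Col3a1, Col5a1 and Col5a2 are lowest in WT, while the points of Col4a1 lie close together in all 3 libraries.

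The libraries also held different kinds of fibroblast. Subclusters led by Pi16, a gene of adventitial fibroblasts, held 11, 18 and 349 cells, and 1 of them, of 185 cells, came wholly from WT. The other fibroblast-like cells, with Mgp, Bgn, Timp1, Sparc and Cxcl14 among their leading genes, numbered 20, 68 and 13. In these the basement membrane sum stood at 3048, 3003 and 2553 CPM (log2 ratio 0.25, SD 0.02). Col4a1 stood there at 752, 743 and 884 CPM and Col15a1 at 1222, 1053 and 725 CPM, so the ratios of the whole class for these genes were not seen within this subset. In the Pi16-led cells the basement membrane sum stood at 1646, 1627 and 582 CPM. There Col15a1, at 401, 768 and 37.7 CPM (log2 ratio 3.92), and Col4a2, at 321, 286 and 105 CPM (1.53), were past 1.5-fold in both knockout libraries as in the whole class. The share of all genes past that fold was not computed in the Pi16-led cells. Pi16 itself stood at 1907, 78.1 and 4105 CPM there, so the 18 cells of Aoah-/- mouse 3 hardly carried the gene that leads these subclusters.

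The fibrillar difference remained outside the Pi16-led cells, with the fewest cells in WT. The sum stood at 9062, 10724 and 5105 CPM (log2 ratio 0.95, SD 0.17), with Poisson intervals of 8585 to 9559, 10427 to 11028 and 4673 to 5566 CPM. Col3a1 stood at 2658, 4143 and 1182 CPM (log2 ratio 1.52, SD 0.45), Col5a1 at 282, 297 and 99.3 CPM (1.53) and Col5a2 at 409, 417 and 139 CPM (1.56). Col8a1 stood at 416, 221 and 109 CPM and Col16a1 at 181, 145 and 49.7 CPM. These were the 5 of 16 members higher by 1.5-fold in both knockout libraries, against 15.9% of all genes. Col12a1 was the 1 member lower in both, at 322, 261 and 516 CPM, against 10.7% of all genes, whereas in the whole class it had been higher.

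Other genes of this subset differed less. Col1a1 stood at 2389.7, 2916 and 1629 CPM and Col1a2 at 3269, 2877 and 2016 CPM, with log2 ratios of 0.70 and 0.61, in each case lowest in WT. Col14a1 stood at 248, 172 and 149 CPM here and at 602, 638 and 697 CPM in the Pi16-led cells, so its level differed more between the subsets than between the genotypes. In Pi16-led cells the fibrillar sum stood at 13067, 38424 and 7274 CPM (log2 ratio 1.82, SD 1.10), the first resting on 11 and the second on 18 cells. The per-cell median of type I and III UMIs per 10000 was 124, 61.3 and 65.6 there, so Aoah-/- mouse 3 lay below WT. Its quartiles were 42.9 to 264, against 40.5 to 88.4 in WT, so its sum does not describe a typical cell. The 13 WT cells outside the Pi16-led subclusters held 514 fibrillar UMIs in all.

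Markers of other cell types differed between the libraries in these small classes. In the whole fibroblast-like class the 16 fibroblast markers summed to 9538, 5023 and 26930 CPM, the 15 pericyte markers to 2747, 1092 and 205 CPM, the 16 macrophage markers to 4869, 3232 and 3179 CPM and the 21 PTEC markers to 5423, 8261 and 6471 CPM. The macrophage list includes Fn1, on which fibrils assemble, and this gene made up most of the macrophage sum in WT. The macrophage sums of these cells and of their subsets are therefore not a measure of macrophage RNA alone. All 16 fibroblast markers were detected in each library. In the Pi16-led cells the PTEC markers summed to 18065, 27685 and 6298 CPM and the fibroblast markers to 29125, 16557 and 27769 CPM. The PTEC markers thus stood above the fibroblast markers there in Aoah-/- mouse 3. In the cells outside the Pi16-led subclusters the PTEC markers summed to 1195, 5020 and 10985 CPM and the fibroblast markers to 2987, 3099 and 5016 CPM, and 1 fibroblast marker was among their 10 leading genes. Pericyte markers summed to 3551, 1220 and 3854 CPM there, above the fibroblast markers in Aoah-/- mouse 2, and macrophage markers to 5088, 3290 and 1847 CPM. The pericyte list came second to the fibroblast list when this subcluster was named (mean log2 fold of the best markers 4.62 against 5.16), and Cald1 and Tagln were among the leading genes. The part of these markers in the collagen ratios was not tested.

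Pericyte or smooth muscle-like cells numbered 50, 32 and 18. The fibrillar sum stood at 725, 3616 and 839 CPM (log2 ratio 1.37, SD 1.64), a spread between the knockout libraries that was larger than the ratio. Of these cells 48.0%, 59.4% and 38.9% had at least 1 type I or III UMI. Type VI stood at 316, 539 and 81.5 CPM (log2 ratio 2.39, SD 0.54) and basement membrane collagens at 1445, 1891 and 1129.7 CPM (0.56, SD 0.27). Col4a1 stood at 605, 692 and 373 CPM, Col4a2 at 393, 545 and 198 CPM, Col6a1 at 70.9, 231 and 11.6 CPM, Col6a2 at 76.3, 96.2 and 34.9 CPM, and Col6a3 at 147, 199 and 34.9 CPM.

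Those were the 5 of 12 members higher in both Aoah-/- libraries, against 11.3% of all genes. Col4a4 at 65.4, 44.9 and 186 CPM and Col12a1 at 87.2, 38.5 and 233 CPM were lower, against 8.64% of all genes. The WT values of Col6a1, Col6a2 and Col6a3 rest on 7 type VI UMIs in all. Col4a6 stood at 16.4, 12.8 and 46.6 CPM on 2 to 4 UMIs per library. PTEC markers summed to 9933, 18881 and 13580 CPM in this class, beside 18476, 26850 and 22815 CPM for its own markers.

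In endothelial-like cells, 1063, 1467 and 744 in number, the basement membrane collagens were higher in both Aoah-/- libraries by less than 1.5-fold on average. The sum stood at 1297 CPM (95% Poisson interval 1265 to 1330), 1551 CPM (1523 to 1580) and 1017 CPM (984 to 1051), a log2 ratio of 0.49 with an SD of 0.18. Col4a1 stood at 651, 818 and 530 CPM (log2 ratio 0.47) and Col4a2 at 373, 432 and 283 CPM (0.51). Both chains of the common type IV network were lowest in WT. Col15a1 stood at 77.1, 87.3 and 53.7 CPM (0.61) and Col18a1, the precursor of endostatin, at 130, 126 and 97.2 CPM (0.40).

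Past 1.5-fold in both knockout libraries were 3 of 11 members, against 2.32% of all genes in these cells, and 0 were lower, against 0.665%. Col4a5 stood at 16.1, 14.7 and 4.26 CPM (log2 ratio 1.64, SD 0.09), Col5a2 at 37.2, 36.7 and 21.3 CPM (0.77, SD 0.01) and Col8a1 at 15.9, 12.5 and 5.97 CPM (1.12, SD 0.23). In each the knockout libraries lay close together and above WT. Col4a5 and Col8a1 were under 10 CPM in WT and met the minimum only through the knockout libraries, which leaves Col5a2 as the 1 call that the minimum did not favor. The knockout libraries differed from each other by 1.5-fold in 2 of the 11 members and in 1.81% of all genes. The median log2 ratio was 0.47 over the 11 members and -0.00 over all genes tested.

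Types I and III behaved differently in this class, at 2.93, 3.18 and 27.8 CPM, and 9 WT cells held all 98 of the WT UMIs. Dcn, a fibroblast proteoglycan, stood beside them at 0.836, 0.138 and 31.0 CPM, and its part in that difference was not tested. Against the endothelial values above, Col4a1 was at 9.45, 11.2 and 7.19 CPM in T and B lymphocyte-like cells of the same libraries. Endothelial markers summed to 13224, 13589 and 12903 CPM in the endothelial-like class, with all 16 detected in each library, and PTEC markers to 7426, 7070 and 6176 CPM.

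The endothelial-like cells held 2 large clusters that carried different collagens. A cluster led by Fabp4, Plvap, Emcn, Flt1 and Kdr, genes of peritubular capillaries, had 566, 749 and 370 cells. A cluster led by Tm4sf1, Ptprb, Mgp, Cldn5 and Podxl had 431, 511 and 309 cells, with Sox17, a gene of arterial vessels, also among its leading genes. Ptprb was among the leading genes of both clusters, and the kind of vessel was not tested. Col4a1 stood at 1001, 1331 and 906 CPM in the former and at 393, 417 and 307 CPM in the latter, a mean log2 ratio of 1.52 with an SD of 0.17 over the 3 libraries. Col4a2 stood at 579, 688 and 496 CPM against 217, 232 and 156 CPM. Col15a1 stood at 168, 182 and 132 CPM against 2.43, 3.38 and 3.49 CPM, and the transmembrane collagen Col13a1 at 26.6, 25.5 and 36.9 CPM against 0, 1.85 and 0.998 CPM.

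These 4 members were higher in the Plvap cluster in all 3 libraries, against 6.58% of all genes, and 4 were lower, against 5.58%. Lower were Col18a1, at 59.1, 28.9 and 21.1 CPM against 200, 242 and 156 CPM, and Col12a1, at 0.484, 0.304 and 0.752 CPM against 60.3, 53.2 and 51.9 CPM. Col5a2, at 16.0, 10.0 and 6.02 CPM against 58.7, 71.0 and 32.9 CPM, and Col8a1, at 0.484, 1.22 and 3.76 CPM against 30.4, 25.2 and 7.99 CPM, were lower as well. Of these 8 genes, Col15a1, Col13a1, Col12a1 and Col8a1 met the minimum only through the cluster where they were high. The basement membrane sum stood at 1852, 2289 and 1614 CPM in the Plvap cluster and at 877, 972 and 651 CPM in the other, so the Aoah-/- libraries were above WT within both. Col4a5 stood at 25.5, 21.8 and 4.99 CPM in the Tm4sf1 cluster. The clusters were built on other genes of the same cells, and these contrasts are descriptions.

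**Figure D4:**
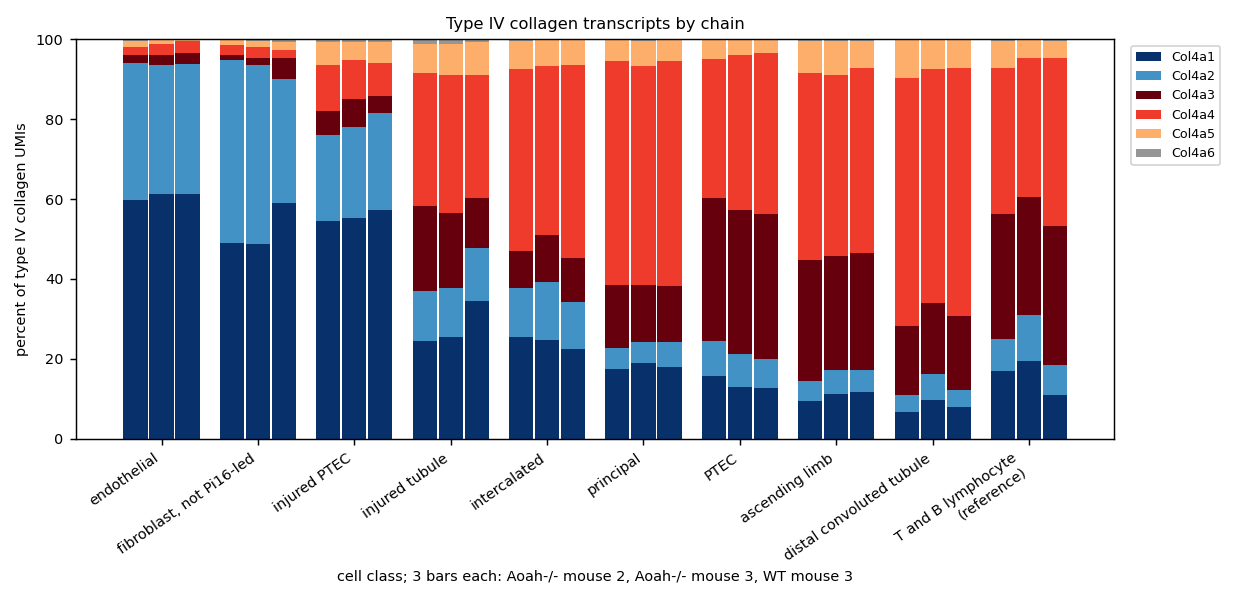
Share of type IV collagen UMIs by alpha chain in 10 cell classes and 3 libraries (stacked bars, percent of the class's type IV UMIs). Alpha 1 and alpha 2 take 93.5% to 94.0% in endothelial-like cells and 76.1% to 81.6% in injured PTEC-like cells, against 20.04% to 24.5% in PTEC-like cells.

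The bars of type IV chains set endothelial-like and injured PTEC-like cells apart from PTEC-like cells. In PTEC-like cells, 8060, 5027 and 9340 in number, alpha 1 and alpha 2 took 24.5%, 21.3% and 20.04% of type IV UMIs, and alpha 3 and alpha 4 took most of the rest. Col4a3 stood at 137, 184 and 163 CPM and Col4a4 at 133, 198 and 181 CPM. Col4a1 stood at 59.9, 65.9 and 56.5 CPM, Col4a2 at 33.7, 42.6 and 33.7 CPM and Col4a5 at 18.2, 20.04 and 15.3 CPM. The basement membrane sum was 403, 536 and 466 CPM (log2 ratio 0.01, SD 0.29), with WT between the knockout libraries. Lymphocyte-like cells held 61.0, 63.6 and 69.2 CPM of the same genes, with alpha 1 and alpha 2 at 24.8%, 30.9% and 18.4% of type IV UMIs.

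Of 7 members tested in PTEC-like cells, 0 were 1.5-fold higher in both Aoah-/- libraries, against 1.82% of all genes, and 0 were lower, against 0.778%. No p-value stands behind these counts of 0, since WT had 1 library. Col18a1 stood at 20.6, 25.2 and 15.6 CPM (log2 ratio 0.53, SD 0.20), and Col27a1, a fibrillar collagen of cartilage that also appears in kidney tubules here, at 62.2, 49.98 and 42.4 CPM (0.40). Both were lowest in WT without reaching 1.5-fold in both libraries. Col8a1 stood at 6.58, 6.56 and 1.99 CPM, under the minimum of 10 CPM. The clusters of this class differed, with Col27a1 at 178, 144 and 99.3 CPM in a cluster led by Slc5a12 and Snhg11, and Col8a1 at 14.8, 17.5 and 8.95 CPM in a cluster led by Spp2 and Slc5a2.

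Injured PTEC-like cells, marked by Vcam1, Ccl2, C3 and Havcr1, numbered 171, 353 and 112, or 0.800%, 1.79% and 0.615% of kept cells. PTEC markers summed to 10309, 11036 and 14458 CPM in them, against 59810, 71138 and 69884 CPM in PTEC-like cells. When this cluster was named, the mean log2 fold of the best markers was 4.69 for injured tubule, 2.94 for pericytes and 1.30 for PTEC. Tagln and Mgp were among its leading genes, and whether all of its cells are proximal was not tested. The basement membrane sum of these cells was 1354, 1573 and 1394 CPM (log2 ratio 0.07, SD 0.15), with WT between the knockout libraries. Col4a1 stood at 550, 651 and 557 CPM, Col4a2 at 217, 271 and 238 CPM, Col18a1 at 344, 389 and 420 CPM and Col4a5 at 57.8, 53.0 and 50.4 CPM. Alpha 1 and alpha 2 took 76.1%, 78.1% and 81.6% of type IV UMIs, in each library above the share in PTEC-like cells.

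Compared with PTEC-like cells of the same library, 6 of 9 members were at least 1.5-fold higher in all 3 libraries, against 34.6% of all genes. The mean log2 ratio was 3.25 (SD 0.06) for Col4a1, 2.69 for Col4a2, 1.54 for Col4a5 and 4.19 for Col18a1. The others, Col6a1 and Col1a2, stood at 0.0547 to 0.232 and 0.182 to 0.792 CPM in PTEC-like cells, so they met the minimum only through the injured class, and their ratios, set by the 1 CPM added, are not given. Col4a3, at 59.3, 82.8 and 39.8 CPM, and Col27a1, at 20.1, 20.1 and 10.6 CPM, were lower in all 3 (log2 ratios -1.45 and -1.59), against 8.80% of all genes. Col4a4 stood at 118, 116 and 82.2 CPM and met neither direction. These directions held within each library, the WT one included.

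Between the genotypes, 2 of 12 members were higher by 1.5-fold in both knockout libraries in injured PTEC-like cells, against 3.12% of all genes, and 0 were lower, against 1.51%. Col1a2 stood at 38.2, 29.5 and 15.9 CPM (log2 ratio 1.04, SD 0.26) and Col27a1 at 20.1, 20.1 and 10.6 CPM (0.86, SD 0.00). Col1a1 stood at 11.1, 10.6 and 13.9 CPM, Col6a1 at 35.2, 37.3 and 39.1 CPM and Col6a2 at 15.6, 11.8 and 20.5 CPM, all highest in WT and none past 1.5-fold in both libraries. At least 1 type I or III UMI was found in 9.36%, 10.8% and 10.7% of injured PTEC-like cells, 0.273%, 1.27% and 1.64% of PTEC-like cells and 0.241%, 0.6003% and 0.997% of lymphocyte-like cells. The median UMI totals were 9942, 7005 and 10778 in injured PTEC-like cells and 3084, 5922 and 4863.5 in PTEC-like cells, so depth moves with this share. Fibroblast markers summed to 99.0, 111 and 110 CPM and pericyte markers to 654, 594 and 459 CPM in injured PTEC-like cells. Of these cells 0, 1 and 0 held UMIs of Col1a1, Col1a2 and Col3a1 together.

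**Figure D5:**
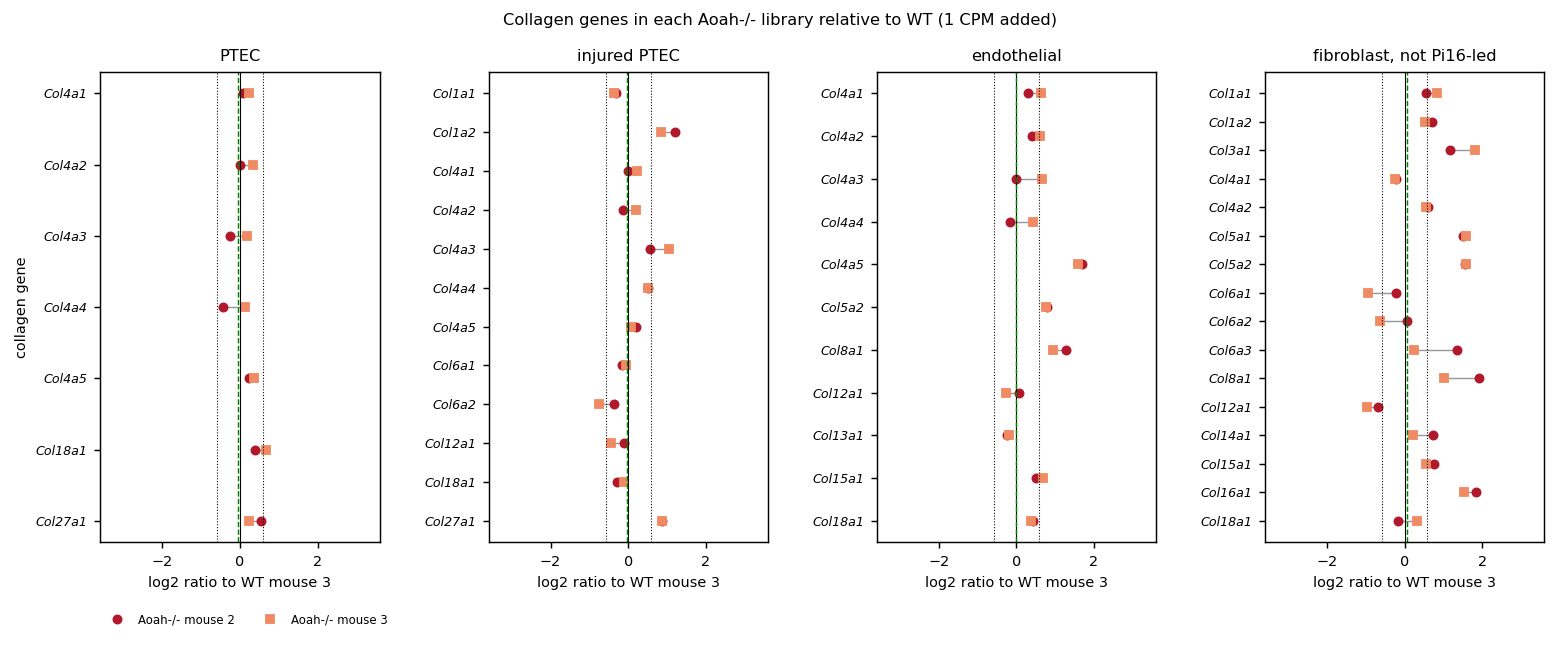
Log2 ratio of each Aoah-/- library to WT for the members tested in PTEC-like, injured PTEC-like, endothelial-like and non-Pi16 fibroblast-like cells (1 point per knockout library; solid line at 0, dotted lines at 1.5-fold, dashed line at the median of all genes). Most points lie within 1.5-fold in both kinds of PTEC, where Col1a2 and Col27a1 pass it in the injured ones, and mostly above 0 in endothelial-like cells and in the fibroblast-like cells.

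The plot of ratios to WT sets these classes side by side, with the median log2 ratio of the members at 0.17 in PTEC-like cells, 0.07 in injured PTEC-like cells, 0.47 in endothelial-like cells and 0.63 in fibroblast-like cells outside the Pi16-led subclusters. The median over all genes tested was between -0.04 and 0.07 in these classes. The classes share the same 3 libraries, so their ratios are not independent of each other.

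Further tubule segments each had a pattern of their own. Tubule cells that carried injury genes without proximal markers, 396, 462 and 288 in number, had a basement membrane sum of 930, 738 and 665 CPM (log2 ratio 0.33, SD 0.24). Col4a3 was the 1 of 8 members higher in both knockout libraries there, at 161, 103 and 64.0 CPM (log2 ratio 1.03, SD 0.45), against 2.10% of all genes. Col4a4 stood at 250, 189 and 158 CPM, Col4a1 at 183, 139 and 176 CPM and Col18a1 at 175, 185 and 149 CPM. Alpha 1 and alpha 2 took 36.9%, 37.8% and 47.7% of the type IV UMIs in that class, between the shares of PTEC-like and injured PTEC-like cells and overlapping the 37.7%, 39.3% and 34.2% of intercalated cell-like cells.

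In ascending limb-like cells the basement membrane sum was 648, 624 and 474 CPM (log2 ratio 0.42, SD 0.04). Col4a4 stood at 274, 251 and 192 CPM, and Col4a5, at 46.1, 46.4 and 27.4 CPM (0.73), was the 1 of 8 members past 1.5-fold, against 2.16% of all genes. Distal convoluted tubule-like cells had Col4a4 at 239, 253 and 238 CPM, with no order by genotype. Their 1 of 8 members past 1.5-fold was Col5a2, at 79.4, 62.8 and 39.4 CPM (log2 ratio 0.83), against 1.29% of all genes. The same gene stood at 75.4, 61.3 and 71.9 CPM in ascending limb-like cells, so UMIs of this fibrillar gene, which overlaps another annotated gene, were counted in tubule cells as well as in stromal ones.

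In the collecting duct 0 of 8 members were past 1.5-fold in principal cell-like cells, against 2.22% of all genes higher and 1.40% lower. Col4a4 stood there at 361, 366 and 390 CPM, Col18a1 at 166, 160 and 182 CPM and Col27a1 at 122, 111 and 89.3 CPM. Col26a1, a secreted collagen of little known function in kidney, stood at 48.3, 36.0 and 53.2 CPM there and at 3.22, 2.50 and 7.68 CPM in intercalated cell-like cells. Intercalated cell-like cells had Col18a1 at 329, 351 and 319 CPM and the rare fibrillar gene Col24a1 at 4.35, 3.96 and 2.03 CPM. There too 0 of 7 members were past the fold, against 1.16% of all genes higher and 0.599% lower.

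Urothelial-like cells carried the epithelial anchoring collagens. Col7a1, the anchoring fibril collagen, stood at 6.63, 6.12 and 8.56 CPM and Col17a1, a hemidesmosome protein, at 7.81, 8.64 and 8.14 CPM. Col4a6, at 9.46, 7.56 and 19.3 CPM (log2 ratio -1.09), was the 1 of 7 members lower in both knockout libraries, against 2.26% of all genes. Col4a5 stood at 29.9, 32.8 and 46.7 CPM and Col18a1 at 88.4, 85.7 and 100.2 CPM.

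Blood and immune classes differed in level. Erythroid-like cells held 170, 843 and 528 basement membrane UMIs among 784984, 2493880 and 2019520 UMIs, a higher level than in lymphocyte-like cells. The PTEC list came second when the erythroid-like cluster was named (mean log2 fold of the best markers 2.13 against 7.63). Kap and Slco1a1, which also lead a PTEC-like cluster, were among its leading genes. The part of tubule RNA in the collagen levels of this class was not tested. Col14a1 stood at 17.2, 42.5 and 19.4 CPM in macrophage-like cells and at 53.3, 58.5 and 33.4 CPM in their cluster led by C1qa, C1qb and C1qc. The larger class was uneven, with a cluster of 1409, 17 and 78 cells mostly from Aoah-/- mouse 2. A cluster of 852, 167 and 1097 macrophage-like cells, with C1q genes among its leading genes, was uneven as well. Col23a1, a transmembrane collagen, stood at 5.69, 0.266 and 0.288 CPM in macrophage-like cells. Col18a1 in erythroid-like cells stood at 15.3, 18.4 and 8.91 CPM (log2 ratio 0.85, 1 of 7 members, against 12.7% of all genes higher there). Col15a1 in granulocyte-like cells stood at 24.5, 24.0 and 10.4 CPM (1.15, 1 of 4 members, against 16.1% of all genes). Col11a2 and Col19a1 stayed at 0.225 to 0.417 and 0.361 to 1.06 CPM over all kept cells.

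Over the 17 larger classes, 11 of 103 pairs of member and class were past 1.5-fold in both knockout libraries, 10 higher, against 3.68% of all pairs of gene and class, and 1 lower, against 1.51%. With the fibroblast-like and pericyte classes the number was 30 of 138, of which 23 were higher, against 4.26% of all pairs, and 7 lower, against 2.23%. In 5 of the 30 (Col4a5 and Col8a1 in endothelial-like, Col8a1 in fibroblast-like, Col18a1 in erythroid-like and Col4a6 in urothelial-like cells) the lower side was under 10 CPM, so the minimum was met only through the higher one. The added pairs came from the classes with the fewest cells, in which the knockout libraries were often 1.5-fold apart themselves.

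Genes that make, process or bind collagen were read from a list of 64, all present in the tables. In fibroblast-like cells 48 had enough UMIs, and 9 were higher and 12 lower in both Aoah-/- libraries, against the 11.2% and 11.5% of all genes given above. Of 16 synthesis and folding genes 4 were higher and 0 lower: Plod1, a lysyl hydroxylase, stood at 95.6, 94.9 and 21.2 CPM, Fkbp10, a collagen chaperone, at 101, 114 and 38.8 CPM, and P3h1 and Plod3 made up the others. Of 7 fibril partners 1 was higher and 4 lower. The proteoglycan Bgn stood at 2626, 2499 and 255 CPM (log2 ratio 3.32). Ogn, at 176, 100.5 and 1131 CPM (-3.02), and Tnxb, at 106, 46.5 and 583 CPM (-2.92), were lower. Pcolce2, which aids the trimming of procollagen, stood at 171, 48.4 and 803 CPM (-2.86). Ddr2, a receptor for fibrillar collagen, stood at 156, 96.8 and 648 CPM (-2.35), and Lama4, a laminin chain, at 80.5, 24.2 and 294 CPM (-2.47). The Pi16-led subclusters held 349 of the 362 WT cells. Outside them Plod1, Fkbp10, P3h1 and Plod3 were higher again and Ogn was lower again. Bgn, Tnxb, Pcolce2, Ddr2 and Lama4 were not past the fold there in both knockout libraries or did not meet the minimum.

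Outside the Pi16-led subclusters 38 pathway genes had enough UMIs, 12 higher and 6 lower, against 15.9% and 10.7% of all genes. Synthesis and folding genes made up 7 of the 12, out of 14 tested, and none of them was lower. In WT these 7 rested on 2 to 7 UMIs each, in 13 cells, so they met the minimum of 30 UMIs through the knockout libraries. Plod2, which hydroxylates the telopeptides, stood at 53.7, 45.6 and 19.9 CPM, P4ha1, a prolyl hydroxylase subunit, at 114, 82.5 and 49.7 CPM, and Adamts2, which removes the amino-terminal propeptide, at 148, 128 and 69.5 CPM. Fn1, on which fibrils assemble, stood at 1457, 1383 and 387 CPM in these cells, the reverse of its order in the whole class, where it stood at 1263, 1245 and 2142 CPM. In endothelial-like cells 1 of 36 pathway genes was higher, against the 2.32% of all genes given above, namely Nid2 at 31.4, 32.4 and 19.6 CPM. Dcn and Pcolce2 were lower, against 0.665% of all genes. Both met the minimum only through WT, with knockout means of 0.487 and 4.44 CPM. In PTEC-like cells 0 of 18 were past the fold, against 1.82% of all genes higher and 0.778% lower. In injured PTEC-like cells Fn1 stood at 178, 119 and 55.0 CPM (log2 ratio 1.42), with Bmp1 and Nid2, both under 10 CPM in WT, also higher and P4ha2 lower among 35, against 3.12% of all genes higher and 1.51% lower.

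Some neighboring genes followed each other across the larger classes and others gave low r values. The starts of Col4a1 and Col4a2 on chromosome 8 lie 21 bases apart. Over the 17 larger classes, without the fibroblast-like and pericyte ones, their Pearson r was 0.96, 0.98 and 0.98 in the 3 libraries. It was 0.88, 0.93 and 0.89 for Col4a3 and Col4a4, 72 bases apart on chromosome 1, and 0.74, 0.73 and 0.72 for Col4a5 and Col4a6, 1309 bases apart on the X chromosome. Col3a1 and Col5a2, which are adjacent on chromosome 1 but face each other with their ends, gave -0.00, -0.28 and 0.10. Both genes had their highest level in fibroblast-like cells, which these r values leave out, so the r values do not cover that class. Col6a1 and Col6a2, on the same strand of chromosome 10, gave 0.99, 0.92 and 0.86. Col6a5 and Col6a6 on chromosome 9 gave -0.10 and -0.15 in Aoah-/- mouse 3 and WT, and Col6a4, of which 23 UMIs were counted in all, gave -0.08 and -0.22 with Col6a5. In Aoah-/- mouse 2 the 2 Col6a5 UMIs were in fibroblast-like cells, so no r could be computed. In Aoah-/- mouse 3 those cells held 21 of 25 Col6a5 UMIs. The counts of Col6a5 left there cannot show whether it follows its neighbors. The values of a library share its depth and its free RNA, and these r values are descriptions with no test. Col1a2, Col3a1, Col4a1, Col4a3, Col4a5, Col5a2 and Col27a1 each overlap another gene annotated on the same strand. So do Col4a6, Col6a3, Col7a1, Col19a1, Col20a1, Col24a1, Col25a1 and Col26a1, and how reads in the overlaps were counted is not known.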

How the data were processed

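Kidney cells of 2 Aoah-/- mice (mouse 2 and mouse 3) and 1 WT mouse (mouse 3), 14 days after FA, were read on 3' v2 droplet chemistry. The deposited matrices hold raw UMI counts per gene and barcode that the authors obtained with Cell Ranger. The submitters' processing notes name Cell Ranger 3.1.0, STAR, Seurat 4.2.0 and mm10, while the matrix headers name 6.1.2. Barcodes had been called as cells before deposit, and the gene annotation is not given in the sources used here. Kept cells held 131937609, 130300741 and 124637328 UMIs.

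Barcodes with a minimum of 200 genes and a maximum of 50% mitochondrial UMIs were clustered in scanpy 1.11.5 (2000 variable genes, 50 principal components, 15 neighbours, Leiden resolution 1), with the 44 collagens and 12 other genes (Aoah, Cd74, Ciita and MHC class II genes) held out. Stromal and unnamed clusters were clustered again with 30 components, and the rules for naming those subclusters (Pdgfra at least 4-fold, Upk3b) were set after seeing the data. No doublet removal is stated, and none was applied in the values reported. Classes were named from listed markers. For each class and library UMIs were added up and expressed per 1000000 (CPM) with exact 95% Poisson intervals, shares of cells with exact Clopper-Pearson intervals, both covering counting error only. A member was counted as higher or lower where both Aoah-/- libraries lay at least 1.5-fold from WT on the same side, beside the percent of all genes that did so. Members with at least 100 UMIs were named with values, and of the pathway genes past the fold the 6 with the largest log2 ratio per class, with further ones chosen after their values were seen. The procedure was tested on simulated data. These were Poisson counts without variation between mice, and only well counted genes were changed in them. That test therefore does not cover differences between mice of a genotype or genes with few UMIs. Python 3.11.15, numpy 2.4.6, scipy 1.17.1, igraph 0.11.9 and matplotlib 3.10.9 were used. The members and gene lists were chosen with earlier results of these data known.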

Additional observations from a re-analysis of the deposited data

Results flagged for a closer look

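The sign of the log2 ratio between the Aoah-/- mean and WT was read for 4 pairs of summed levels, and for single members over the 19 classes where both knockout libraries were past 1.5-fold. It differed for 1 pair of sums and for 2 members, and none of these differences was tested. Other members differed in sign by smaller amounts or between a class and all kept cells. The fibrillar sum was higher in fibroblast-like cells (0.78) and lower over all kept cells (-1.35), beside fibroblast-like shares of 0.145%, 0.437% and 1.99% of kept cells. Col12a1 was higher in fibroblast-like cells (2.86) and lower in pericyte or smooth muscle-like cells (-1.87), of which the libraries held 50, 32 and 18. Col4a5 was higher in ascending limb-like (0.73) and endothelial-like cells (1.64) and lower in fibroblast-like cells (-1.30).

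Cells that carried no class name also held fibrillar collagen other than Col27a1. The level was 8.97, 77.5 and 33.5 CPM over 611, 1649 and 388 such cells in Aoah-/- mouse 2, Aoah-/- mouse 3 and WT mouse 3, against 2.60, 4.28 and 5.04 CPM in T and B lymphocyte-like cells. In Aoah-/- mouse 3 most of these cells came from 1 cluster of 147, 1505 and 115 cells that had stromal (Mgp, Bgn, Sparc), granulocyte (S100a8, S100a9) and endothelial (Fabp4) genes among its leading genes. Whether these are doublets or free RNA was not tested.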

How the results depend on the processing

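Of 86 values under other settings, 71 stayed within the limits set for each result. The limit was a factor of 1.5 for counts and otherwise the SD between libraries of the main value. Ratios and cell shares without 1 Aoah-/- library were almost bound to stay within it, since that SD comes from the same 2 libraries. Settings that changed only the clustering could not move the sums over all kept cells. The count of 71 includes such values and is not a measure of stability. No paired analysis was possible because the groups share only replicate number 3. The log2 ratio of the fibrillar sum in fibroblast-like cells, 0.78, was 0.00378 with at most 20% mitochondrial UMIs, 0.20 with 30 principal components, 1.82 in the Pi16-led cells alone (chosen after seeing the data) and 0.48 to 1.03 without 1 Aoah-/- library. In the Pi16-led cells the per-cell median of types I and III was below WT in Aoah-/- mouse 3. The difference in the share of fibroblast-like cells, -1.70 points, was -2.88 with the 20% limit, -2.12 with at least 500 genes, -2.22 with a common lowest UMI total, -1.47 without the cells of highest Scrublet score, -1.47 with 30 components and -2.51 with Upk3b stromal cells counted (chosen after seeing the data). The fibrillar ratio over all kept cells, -1.35, turned to 0.30 without the fibroblast-like and Upk3b stromal cells, also chosen after seeing the data, and was -1.80 to -1.002 without 1 Aoah-/- library. Most of the sum behind the value of 0.30 was Col27a1, but its own log2 ratio in those cells was 0.02. It was 0.16 in Aoah-/- mouse 2 and -0.14 in Aoah-/- mouse 3, so Col27a1 was not higher in both. The 11 pairs of member and class past 1.5-fold became 2 at a fold of 2, 37 with 10 UMIs and no CPM minimum, 30 with the 2 small classes added, and 22 to 29 without 1 Aoah-/- library. Leaving out 1 Aoah-/- library gave 0.35 to 0.61 for the basement membrane ratio in endothelial-like cells, -0.21 to 0.20 in PTEC-like cells and -0.14 to 0.29 over all kept cells. The cause of these shifts was not tested beyond the cells or genes each setting removed. Leaving out the only WT library leaves no comparison. The fibroblast-like cells hold the most fibrillar collagen but few cells, 31 in the smallest library and 11 and 13 in the smallest subsets, and this limits what they can show.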
